A study of Mus musculus with 15 samples.

Results

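Amino acid transporters of the Slc1, Slc3, Slc6, Slc7, Slc36, Slc38 and Slc43 families were followed in sorted mouse liver macrophages. They were chosen by symbol alone, as the genes whose RefSeq symbol begins with Slc1a, Slc3a, Slc6a, Slc7a, Slc36a, Slc38a or Slc43a. Of 67 such symbols, 4 name opposite-strand genes (Slc36a1os, Slc36a3os, Slc6a19os and Slc7a6os), which left 63 transporter genes. A probe was on the array for 61 of the 63, among 20145 genes named there, and 34 were bright enough to be tested, out of 13390 genes tested in all.

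The 3 groups had 5 arrays each and came from male mice. CD11c-positive MC4R_WD cells and CD11c-negative MC4R_WD cells came from mice without the melanocortin 4 receptor (MC4R-KO), a brain receptor that limits appetite. These mice had been fed a Western diet from 8 weeks of age, for 20 weeks, and had non-alcoholic steatohepatitis. WT_SD cells were CD11c-negative and came from wildtype mice on a standard diet; no source used here states their age. In every group, livers had been digested with collagenase and cells with high F4/80, a surface protein of macrophages, had been sorted by CD11c, the integrin alpha X chain. Each sample pooled the macrophages of 7 to 9 mice. Genotype and diet differed together between MC4R_WD and WT_SD, so their parts cannot be told apart. The labels do not say that the pools of a group shared no mice, so p-values measure only how far these samples spread, and that spread may be technical.

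Amino acids cross membranes by carriers that differ in substrate, coupling and location. Most Slc7 light chains, such as Slc7a5 to Slc7a8 and Slc7a11, reach the plasma membrane with the heavy chain CD98, encoded by Slc3a2, and exchange one amino acid for another. The cationic carriers Slc7a1 to Slc7a3 work alone and bring in arginine, lysine and ornithine. Slc1 members take up glutamate with sodium or exchange small neutral amino acids. Slc38 members carry glutamine and other neutral amino acids with sodium, and Slc6 members use sodium and chloride for creatine, taurine, betaine, GABA, glycine or proline. Slc36a1, Slc38a7 and Slc38a9 act at the lysosome, where Slc38a9 reports arginine to the kinase complex mTORC1. In macrophages these carriers are known for arginine supply to nitric oxide synthase and arginase, for cystine supply to glutathione and for glutamine supply.

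Levels are log2 of the background-subtracted signal relative to the 75th percentile of the same array, so 0 is that percentile, and they are given as mean ± SD over the 5 arrays of a group. A level is set only against levels of the same gene. Differences are log2 ± the standard error of limma, with its p-values adjusted over all genes tested (Benjamini-Hochberg), and a gene passed at an adjusted p under 0.05. The 75th percentile was 358.6 to 562.4 units, and the share of spots well above background was 45.8% to 58.0% per array. The arrays lay on 2 slides, with every group on both. Replicates 1 and 2 of CD11c-positive MC4R_WD cells and replicates 1 to 3 of the other groups lay on slide 1, and the rest on slide 2. The F4/80 gene Adgre1 was well above background on all arrays (mean 7.31 in CD11c-positive MC4R_WD cells, 7.74 in CD11c-negative MC4R_WD cells and 7.34 in WT_SD cells). Itgax, which encodes CD11c, averaged 7.29 in CD11c-positive MC4R_WD cells, 5.93 in CD11c-negative MC4R_WD cells and 4.21 in WT_SD cells. It was higher in CD11c-positive than in CD11c-negative MC4R_WD cells by 1.36 ± 0.033. Between CD11c-negative MC4R_WD cells and WT_SD cells, both sorted as CD11c-negative, it differed by more, 1.72 ± 0.033. The Kupffer cell marker Timd4 averaged 0.91 in CD11c-positive MC4R_WD cells, 2.39 in CD11c-negative MC4R_WD cells and 5.29 in WT_SD cells. On no array was the only Mc4r probe well above background, so it does not check the genotype.

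In CD11c-negative MC4R_WD cells, 16 of the 34 tested transporter genes were higher and 10 were lower than in WT_SD cells. Over all genes, 48.3% were higher and 28.5% lower in that comparison, 76.8% in all, so the transporters' count lies near the background. At least a 2-fold difference was passed by 2 higher and 3 lower transporter genes (5.18% and 6.22% of all genes, 11.4% in all). In CD11c-positive MC4R_WD cells, 14 were higher and 4 lower than in CD11c-negative MC4R_WD cells (29.9% and 23.2% of all genes, 53.1% in all). Of these, 2 and 1 differed by 2-fold or more (1.66% and 1.19% of all genes, 2.85% in all). Against WT_SD cells, 18 were higher and 8 lower in CD11c-positive MC4R_WD cells (51.4% and 26.3% of all genes, 77.6% in all). Of these, 6 and 3 differed by 2-fold or more (6.65% and 7.02% of all genes, 13.7% in all). The 2-fold counts use fitted differences, even where a group had no array well above background. Only a bound holds for both genes 2-fold higher in CD11c-positive than in CD11c-negative MC4R_WD cells, Slc7a11 (at least 1.01-fold) and Slc6a12 (at least 1.64-fold). The same holds against WT_SD cells for Slc7a3, lower in CD11c-negative (at least 1.34-fold) and CD11c-positive MC4R_WD cells (at least 1.70-fold). It holds too for Slc7a11 in CD11c-positive MC4R_WD cells (at least 1.19-fold). A gene was tested when well above background on at least 4 of 5 arrays of any group. Slc7a11 and Slc6a12 passed that filter only through CD11c-positive MC4R_WD cells, and Slc7a3 and Slc38a3 only through WT_SD cells. The filter favours the direction these genes show, so their calls and their lack of overlap are not independent of it. For 23 of the 34 genes the arrays of CD11c-negative MC4R_WD cells and of WT_SD cells did not overlap (64.1% of all genes). The same held for 16 genes between CD11c-positive MC4R_WD cells and CD11c-negative MC4R_WD cells (39.5%) and for 22 between CD11c-positive MC4R_WD cells and WT_SD cells (69.3%). The last comparison shares its arrays with the other two. The median difference of the 34 genes was 0.16 between CD11c-negative MC4R_WD cells and WT_SD cells, against 0.13 over all genes. It was 0.077 between CD11c-positive MC4R_WD cells and CD11c-negative MC4R_WD cells, against 0.015 over all genes, and 0.056 with dim genes set to their bounds. For CD11c-positive MC4R_WD cells against WT_SD cells it was 0.20, against 0.16 over all genes.

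**Figure D1:**
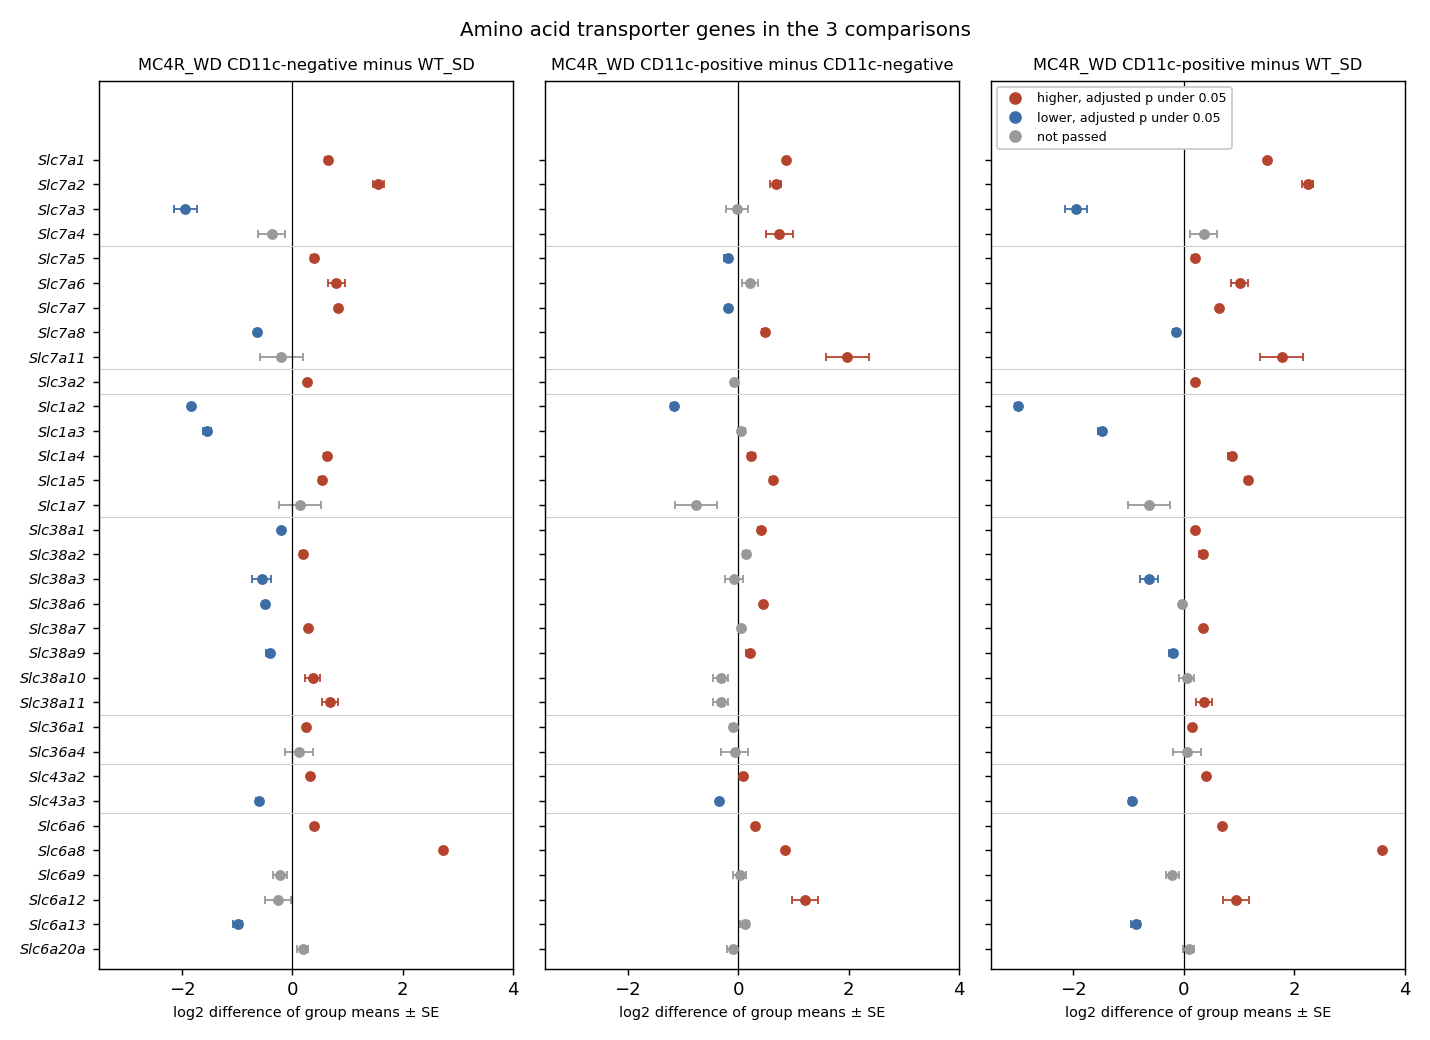
Difference of group means (log2, x axis, points, bars are the standard error of limma) for 33 of the 34 tested transporter genes (y axis, grouped by family) in the 3 comparisons. Red points are higher and blue points lower at an adjusted p under 0.05 and grey points did not pass. Slc6a8 lies farthest to the right in both comparisons with WT_SD and Slc1a2 farthest to the left in both comparisons that involve CD11c-positive cells.

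The directions of small differences depended on how arrays were scaled. With quantile normalization the median of all genes between CD11c-negative MC4R_WD cells and WT_SD cells was -0.0030 in place of 0.13, and the transporters split into 14 higher and 11 lower. With the percentile taken over probes detected on all arrays it was -0.10, and they split 12 and 12. Over all genes the share of passing genes that were higher was 62.9%, 48.4% and 38.9% under the 3 scalings. Relative to the median of all genes, 17 of the 34 transporters lay above it under each of them. The percentile scalings differ only by a constant per array, so their counts relative to that median are the same by construction. Only quantile normalization could have given another count. For CD11c-positive MC4R_WD cells against WT_SD cells the median of all genes was 0.16, 0.038 and -0.083, and the transporters split 18 and 8, 15 and 10, and 12 and 11. The scalings moved that median less between CD11c-positive MC4R_WD cells and CD11c-negative MC4R_WD cells, where it was 0.015, 0.027 and 0.0026. Slides were compared within themselves too. Between CD11c-negative MC4R_WD cells and WT_SD cells, 16 transporter genes were higher on either slide alone, and 9 were lower on slide 1 and 10 on slide 2. CD11c-positive MC4R_WD cells against CD11c-negative MC4R_WD cells gave 12 higher and 5 lower on slide 1, and 12 and 7 on slide 2. CD11c-positive MC4R_WD cells against WT_SD cells gave 15 and 8 on slide 1, and 19 and 7 on slide 2.

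**Figure D2:**
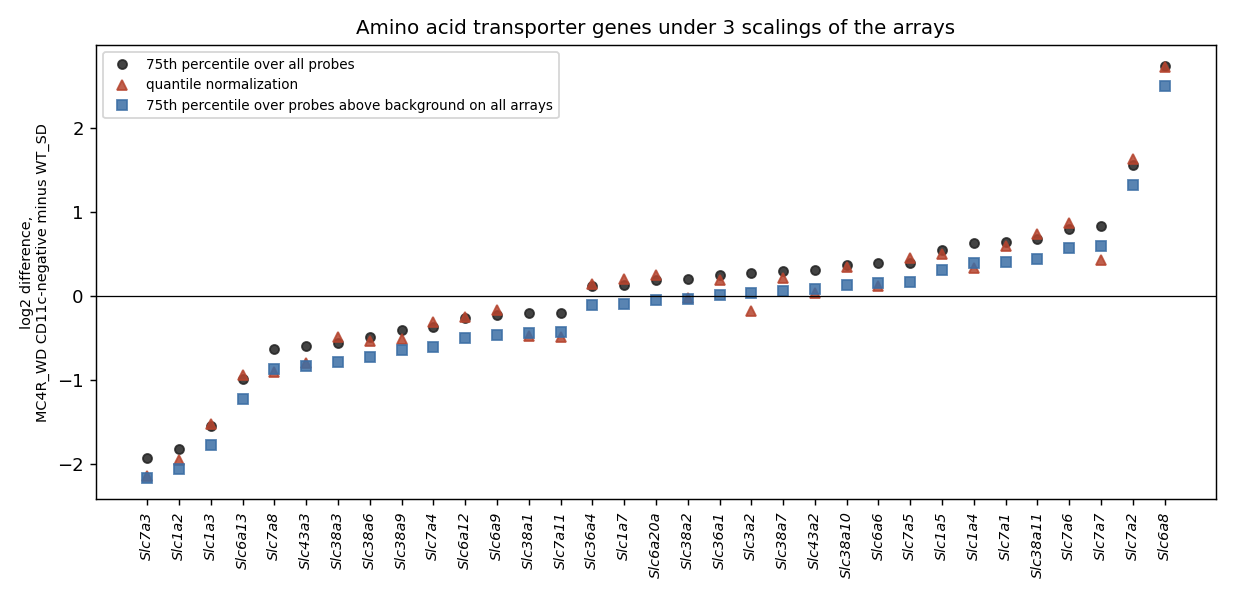
Difference between CD11c-negative MC4R_WD cells and WT_SD cells (log2, y axis) for 33 of the 34 tested transporter genes (x axis, ordered by the first scaling) under 3 scalings of the arrays. The outer genes keep their side of 0 under all 3, while genes near 0, such as Slc38a2 and Slc3a2, do not.

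The creatine carrier Slc6a8 and the taurine carrier Slc6a6 were higher in both MC4R_WD groups. Slc6a8 showed the largest difference of the 34 genes in both comparisons with WT_SD cells. It measured 3.04, 2.99, 3.06, 3.04 and 3.06 in CD11c-positive MC4R_WD cells, 2.14, 2.12, 2.28, 2.22 and 2.19 in CD11c-negative MC4R_WD cells, and -0.51, -0.63, -0.50, -0.48 and -0.61 in WT_SD cells. No array of any group overlapped with another group, and CD11c-positive cells were highest. The level was 6.66-fold higher in CD11c-negative MC4R_WD cells than in WT_SD cells (2.74 ± 0.038, adjusted p = 1.07e-16) and 12.0-fold higher in CD11c-positive MC4R_WD cells than in WT_SD cells (3.58 ± 0.038, adjusted p = 4.28e-18). CD11c-positive MC4R_WD cells were 1.80-fold above CD11c-negative MC4R_WD cells (0.85 ± 0.038, adjusted p = 1.77e-10). The difference between CD11c-negative MC4R_WD cells and WT_SD cells was 2.73 on slide 1 and 2.75 on slide 2. Slc6a6 had a level of 4.17 ± 0.028 in CD11c-positive MC4R_WD cells, 3.88 ± 0.057 in CD11c-negative MC4R_WD cells and 3.49 ± 0.054 in WT_SD cells. It was higher in CD11c-negative MC4R_WD cells than in WT_SD cells by 0.39 ± 0.033 (adjusted p = 5.47e-08) and higher again in CD11c-positive MC4R_WD cells than in CD11c-negative MC4R_WD cells by 0.30 ± 0.033 (adjusted p = 3.06e-06).

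Monocyte, neutrophil and stellate cell lists had more markers higher than lower against WT_SD cells. Slc6a8 rose there too, as did Slc7a1, Slc7a2 and Slc1a5, described below. Of 8 tested monocyte markers, 5 were higher and 1 lower in CD11c-negative MC4R_WD cells than in WT_SD cells (48.3% and 28.5% of all genes). In CD11c-positive MC4R_WD cells 5 were higher and 2 lower than in WT_SD cells (51.4% and 26.3% of all genes). In CD11c-positive MC4R_WD cells against CD11c-negative MC4R_WD cells, 2 were higher and 6 lower, whereas the 4 transporters were higher. The mean over the list was 3.69 to 3.74 on arrays of CD11c-positive MC4R_WD cells, 3.94 to 4.05 on those of CD11c-negative MC4R_WD cells and 2.95 to 3.01 on those of WT_SD cells. Ccr2, 1 of the 2 markers that were higher, averaged 3.90 in CD11c-positive MC4R_WD cells, 3.76 in CD11c-negative MC4R_WD cells and 2.02 in WT_SD cells. That was the order of the transporters, but not of the 6 lower markers or of the list mean, which was highest in CD11c-negative MC4R_WD cells. Spp1, the only tested marker of the cholangiocyte list, ran in the order of the transporters too. It measured 4.224 to 4.314 in CD11c-positive MC4R_WD cells, 4.073 to 4.215 in CD11c-negative MC4R_WD cells and 0.25 to 0.47 in WT_SD cells. Every tested marker of the monocyte list was well above background in each group. Of 11 tested neutrophil markers, 10 were higher and 1 lower in CD11c-negative MC4R_WD cells than in WT_SD cells. In CD11c-positive MC4R_WD cells 9 were higher and 2 lower than in WT_SD cells. For 9 tested stellate cell and fibroblast markers these counts were 6 and 2, and 5 and 4. The part of these cells in the rises was not tested.

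**Figure D3:**
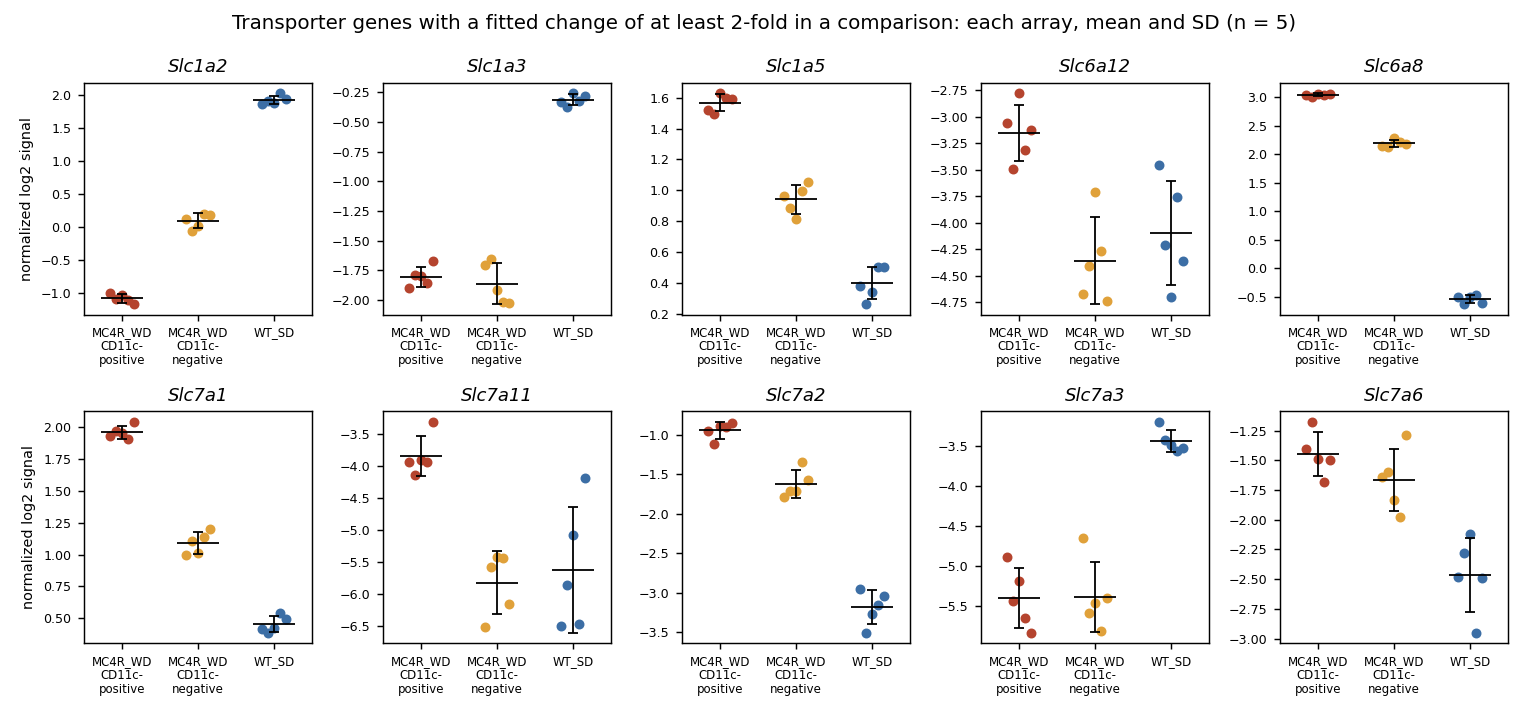
Level (normalized log2 signal, y axis) on each array (points) with the group mean (long line) and SD (bars) for the 10 transporter genes with a fitted difference of at least 2-fold in a comparison. Each panel has its own axis, from left to right CD11c-positive MC4R_WD, CD11c-negative MC4R_WD and WT_SD, 5 arrays each. Slc6a8, Slc7a1, Slc7a2 and Slc1a5 step down from left to right without overlap, Slc1a2 steps up, and Slc7a3, Slc7a11 and Slc6a12 lie near or under the background in at least 1 group.

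The other Slc6 members were dim or had smaller differences. Slc6a12, which carries betaine and GABA, measured -3.06, -3.49, -2.78, -3.31 and -3.13 in CD11c-positive MC4R_WD cells, -4.67, -4.40, -3.71, -4.27 and -4.74 in CD11c-negative MC4R_WD cells, and -3.45, -4.21, -4.70, -3.75 and -4.36 in WT_SD cells. It was well above background on 4 arrays of CD11c-positive MC4R_WD cells, on none of CD11c-negative MC4R_WD cells and on 2 of WT_SD cells. It thus passed the filter only through CD11c-positive MC4R_WD cells, which favours a higher level there. A gene that is not above background on any array of a group has only a bound there, and Slc6a12 was at least 1.64-fold higher in CD11c-positive MC4R_WD cells than in CD11c-negative MC4R_WD cells (fitted 1.21 ± 0.24, adjusted p = 0.000633). Against WT_SD cells the fitted difference of CD11c-positive MC4R_WD cells was 0.94 ± 0.24 (adjusted p = 0.00216), with overlapping arrays. Neither call held with normexp background correction, where the differences were 0.12 and 0.17. Neither passed on slide 1 alone, which has fewer arrays, where they were 0.99 and 0.85. Slc6a13, a GABA and taurine carrier known from hepatocytes and kidney, was lower in both MC4R_WD groups, with a level of -2.13 ± 0.16 in CD11c-positive MC4R_WD cells, -2.25 ± 0.13 in CD11c-negative MC4R_WD cells and -1.26 ± 0.12 in WT_SD cells. It fell by 1.99-fold in CD11c-negative MC4R_WD cells against WT_SD cells (-0.99 ± 0.084, adjusted p = 5.86e-08), and the difference between CD11c-positive MC4R_WD cells and CD11c-negative MC4R_WD cells was 0.12 ± 0.084 (adjusted p = 0.249). The glycine carrier Slc6a9 (-2.32 ± 0.11 in CD11c-positive MC4R_WD cells, -2.35 ± 0.34 in CD11c-negative MC4R_WD cells and -2.12 ± 0.059 in WT_SD cells) and the proline carrier Slc6a20a (-2.12 ± 0.12 in CD11c-positive MC4R_WD cells, -2.02 ± 0.22 in CD11c-negative MC4R_WD cells and -2.21 ± 0.15 in WT_SD cells) passed in no comparison. Their differences lay between -0.23, for Slc6a9 between CD11c-negative MC4R_WD cells and WT_SD cells, and 0.19, for Slc6a20a in the same comparison. Without replicate 2 of CD11c-negative MC4R_WD cells both passed there, at -0.33 for Slc6a9 and 0.24 for Slc6a20a, and without replicate 4 of CD11c-negative MC4R_WD cells Slc6a9 passed between CD11c-positive MC4R_WD cells and WT_SD cells at -0.21.

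The arginine carriers Slc7a1 and Slc7a2 of the plasma membrane were highest in CD11c-positive cells. Slc7a2, the cationic carrier known for induction in activated macrophages, measured -0.95, -1.12, -0.89, -0.90 and -0.85 in CD11c-positive MC4R_WD cells, -1.79, -1.72, -1.71, -1.35 and -1.57 in CD11c-negative MC4R_WD cells, and -2.95, -3.51, -3.26, -3.16 and -3.04 in WT_SD cells. The 3 groups did not overlap. It was 2.94-fold higher in CD11c-negative MC4R_WD cells than in WT_SD cells (1.56 ± 0.10, adjusted p = 3.16e-09). It was 1.61-fold higher in CD11c-positive MC4R_WD cells than in CD11c-negative MC4R_WD cells (0.68 ± 0.10, adjusted p = 5.98e-05) and 4.72-fold higher in CD11c-positive MC4R_WD cells than in WT_SD cells (2.24 ± 0.10, adjusted p = 4.19e-11). Slc7a1, the more widely expressed cationic carrier, measured 1.93, 1.97, 1.95, 1.91 and 2.04 in CD11c-positive MC4R_WD cells, 1.00, 1.10, 1.02, 1.14 and 1.20 in CD11c-negative MC4R_WD cells, and 0.42, 0.39, 0.42, 0.54 and 0.49 in WT_SD cells. Its groups did not overlap either. The steps were 0.64 ± 0.044 between CD11c-negative MC4R_WD cells and WT_SD cells (adjusted p = 5.45e-09) and 0.87 ± 0.044 between CD11c-positive MC4R_WD cells and CD11c-negative MC4R_WD cells (adjusted p = 7.96e-10), and CD11c-positive MC4R_WD cells were 2.84-fold above WT_SD cells. On slide 1 these steps were 0.63 and 0.91, and on slide 2 0.65 and 0.79.

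Slc7a3, a cationic carrier known mainly from brain, ran the other way. It measured -4.88, -5.43, -5.18, -5.64 and -5.83 in CD11c-positive MC4R_WD cells, -4.65, -5.59, -5.46, -5.80 and -5.40 in CD11c-negative MC4R_WD cells, and -3.20, -3.43, -3.49, -3.56 and -3.52 in WT_SD cells, and it was well above background on 4 arrays of WT_SD cells and on none of either MC4R_WD group. All MC4R_WD arrays lay below all WT_SD arrays. The gene passed the filter only through WT_SD cells, which favours that direction. Slc7a3 was at least 1.34-fold lower in CD11c-negative MC4R_WD cells than in WT_SD cells (fitted -1.94 ± 0.20, adjusted p = 5.61e-07) and at least 1.70-fold lower in CD11c-positive MC4R_WD cells than in WT_SD cells (fitted -1.95 ± 0.20, adjusted p = 4.71e-07). Slc7a4, a relative whose substrate is not settled, had a level of -2.46 ± 0.19 in CD11c-positive MC4R_WD cells, -3.20 ± 0.36 in CD11c-negative MC4R_WD cells and -2.82 ± 0.59 in WT_SD cells. CD11c-positive MC4R_WD cells had more of it than CD11c-negative MC4R_WD cells (0.74 ± 0.24, adjusted p = 0.0195). That call was lost without replicate 3 of CD11c-negative MC4R_WD cells (0.63) and with normexp (0.17). It was lost too on slide 1 alone, which has fewer arrays, where the difference was 0.74. The difference between CD11c-negative MC4R_WD cells and WT_SD cells was -0.38 ± 0.24 (adjusted p = 0.172). That between CD11c-positive MC4R_WD cells and WT_SD cells was 0.36 ± 0.24 (adjusted p = 0.187), and without replicate 2 of WT_SD cells it was 0.62 and passed.

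The CD98 partners did not move as 1 group. Slc3a2, the shared heavy chain, had a level of 6.23 ± 0.058 in CD11c-positive MC4R_WD cells, 6.30 ± 0.079 in CD11c-negative MC4R_WD cells and 6.03 ± 0.064 in WT_SD cells. Its difference between CD11c-negative MC4R_WD cells and WT_SD cells was 0.27 ± 0.043 (adjusted p = 4.49e-05), though -0.18 with quantile normalization. The difference between CD11c-positive MC4R_WD cells and WT_SD cells was 0.20 ± 0.043 (adjusted p = 0.000611), and again -0.18 with quantile normalization, so its direction was not settled. Slc7a7, the light chain that exports cationic amino acids for neutral ones and whose human gene is mutated in lysinuric protein intolerance, had a level of 6.09 ± 0.030 in CD11c-positive MC4R_WD cells, 6.28 ± 0.071 in CD11c-negative MC4R_WD cells and 5.45 ± 0.049 in WT_SD cells. It was 1.77-fold higher in CD11c-negative MC4R_WD cells than in WT_SD cells (0.83 ± 0.035, adjusted p = 2.55e-11) and lower in CD11c-positive MC4R_WD cells than in CD11c-negative MC4R_WD cells (-0.19 ± 0.035, adjusted p = 0.000404), with no overlap in either comparison. The means of the neutrophil, monocyte and platelet lists were highest in the same group. Of 11 tested neutrophil markers, 10 were higher in CD11c-negative MC4R_WD cells than in WT_SD cells (48.3% of all genes). In CD11c-positive MC4R_WD cells 10 were lower than in CD11c-negative MC4R_WD cells (23.2% of all genes). The mean over the neutrophil list was 4.05 to 4.12 on arrays of CD11c-positive MC4R_WD cells, 5.48 to 5.57 on those of CD11c-negative MC4R_WD cells and 2.54 to 2.59 on those of WT_SD cells. That of 3 tested platelet and megakaryocyte markers was -0.21 to 0.032, 0.40 to 0.68 and -0.18 to 0.033 in the same order, and the monocyte means are given above. That of 9 tested stellate cell and fibroblast markers was -0.43 to -0.31, -0.32 to -0.083 and -0.71 to -0.54, with overlap between the MC4R_WD groups. The part of these cells in the result was not tested.

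Slc7a6, the related light chain, measured -1.40, -1.18, -1.49, -1.68 and -1.496 in CD11c-positive MC4R_WD cells, -1.64, -1.60, -1.83, -1.97 and -1.29 in CD11c-negative MC4R_WD cells, and -2.48, -2.28, -2.12, -2.95 and -2.49 in WT_SD cells. Arrays of both MC4R_WD groups lay above all arrays of WT_SD cells, and the MC4R_WD groups overlapped. It was 2.02-fold higher in CD11c-positive MC4R_WD cells than in WT_SD cells (1.01 ± 0.15, adjusted p = 2.48e-05) and 1.74-fold higher in CD11c-negative MC4R_WD cells than in WT_SD cells (0.80 ± 0.15, adjusted p = 0.000248). The difference between CD11c-positive MC4R_WD cells and CD11c-negative MC4R_WD cells was 0.22 ± 0.15 (adjusted p = 0.253). The opposite-strand gene Slc7a6os had means of 1.25 in CD11c-positive MC4R_WD cells, 1.11 in CD11c-negative MC4R_WD cells and 0.80 in WT_SD cells, with a difference of 0.31 ± 0.064 between CD11c-negative MC4R_WD cells and WT_SD cells (adjusted p = 0.000449). Slc7a5, the large neutral carrier LAT1 that brings in leucine, had a level of -1.21 ± 0.15 in CD11c-positive MC4R_WD cells, -1.02 ± 0.038 in CD11c-negative MC4R_WD cells and -1.41 ± 0.080 in WT_SD cells on the brighter of its 2 kept probes. It was higher in CD11c-negative MC4R_WD cells than in WT_SD cells (0.39 ± 0.061, adjusted p = 3.70e-05) and lower in CD11c-positive MC4R_WD cells than in CD11c-negative MC4R_WD cells (-0.19 ± 0.061, adjusted p = 0.0166). Its other kept probe gave 0.036 for the first of these differences and 0.48 for the second, so the probes disagreed on both. For CD11c-positive MC4R_WD cells against WT_SD cells the difference was 0.20 ± 0.061 (adjusted p = 0.00800), and -0.047 with the percentile over probes detected on all arrays.

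Slc7a11, the light chain of the cystine and glutamate exchanger xCT, was dim. It measured -3.93, -4.14, -3.91, -3.94 and -3.31 in CD11c-positive MC4R_WD cells, -6.52, -5.59, -5.42, -5.43 and -6.16 in CD11c-negative MC4R_WD cells, and -6.51, -5.86, -5.08, -6.47 and -4.20 in WT_SD cells. It was well above background on 4 arrays of CD11c-positive MC4R_WD cells and on none of the other groups. Every array of CD11c-positive MC4R_WD cells lay above every other array. The gene passed the filter only through CD11c-positive MC4R_WD cells, which favours that direction. The bound was at least 1.01-fold higher in CD11c-positive MC4R_WD cells than in CD11c-negative MC4R_WD cells (fitted 1.98 ± 0.39, adjusted p = 0.000646) and at least 1.19-fold higher than in WT_SD cells (fitted 1.78 ± 0.39, adjusted p = 0.000760). The bounds are close to 1 because the level in CD11c-positive MC4R_WD cells was itself near the lowest signal called above background. Neither call held with normexp (0.24 and 0.27). Neither passed on slide 2 alone, which has fewer arrays, where the differences were 2.08 and 1.61.

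Promoters of the transporter genes were read for a pair of short motifs on both strands, TGATGNAA, the core bound by ATF4 in the amino acid response, and TGACNNNGC, the core of the antioxidant response element bound by NRF2. The windows run from 250 bases before to 50 after the transcription start, from RefSeq on GRCm38.p6, and were found for 45 of the 63 genes (66 promoters). TGATGNAA occurred in 7.58% of the 66 and in 3.97% of all 32851 promoters of the table, and TGACNNNGC in 16.7% and 12.4%. Among the 10 genes with a fitted difference of at least 2-fold, 6 had a promoter in the table, and those of Slc7a11, Slc7a1 and Slc7a6 held a match. They are shown 5′ to 3′ on the strand of the gene, with matches in capitals, since these genes had their highest mean in CD11c-positive MC4R_WD cells. The Slc7a11 window at chr3:50443564-50443863 (minus strand) held TGATGNAA once on each strand, at -66 and -47 from the start site. The Slc7a1 window at chr5:148399855-148400154 (minus strand) held TGACNNNGC once, on the strand opposite to the gene, at -11. The Slc7a6 window at chr8:106168604-106168903 (plus strand) held TGACNNNGC once, at -1, across the start. A match describes the letters only.
Slc7a11: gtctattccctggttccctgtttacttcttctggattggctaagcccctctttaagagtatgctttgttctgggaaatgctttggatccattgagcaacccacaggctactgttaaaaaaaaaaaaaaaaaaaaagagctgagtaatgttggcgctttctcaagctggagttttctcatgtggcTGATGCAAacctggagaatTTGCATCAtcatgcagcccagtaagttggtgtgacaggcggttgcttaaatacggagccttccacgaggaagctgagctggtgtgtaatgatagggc
Slc7a1: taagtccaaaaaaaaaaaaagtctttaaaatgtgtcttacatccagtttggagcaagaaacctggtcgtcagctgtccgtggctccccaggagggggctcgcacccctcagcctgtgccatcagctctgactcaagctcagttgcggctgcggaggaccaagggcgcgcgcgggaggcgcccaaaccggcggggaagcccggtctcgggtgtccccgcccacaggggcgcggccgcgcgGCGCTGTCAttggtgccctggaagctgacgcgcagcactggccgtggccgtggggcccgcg
Slc7a6: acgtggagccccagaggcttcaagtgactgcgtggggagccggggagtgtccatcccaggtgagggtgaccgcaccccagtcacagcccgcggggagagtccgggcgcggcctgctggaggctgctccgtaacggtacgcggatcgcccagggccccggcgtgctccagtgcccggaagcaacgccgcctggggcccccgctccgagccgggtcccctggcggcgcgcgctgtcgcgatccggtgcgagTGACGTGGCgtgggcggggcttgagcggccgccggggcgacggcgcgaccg

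Among the other tested genes, TGATGNAA was found once in the Slc1a4 window at -4 and in 2 windows of Slc7a7, and TGACNNNGC in windows of Slc38a2, Slc36a1, Slc6a9 and Slc6a13. Of these genes Slc1a4 and Slc7a7 were higher and Slc6a13 was lower in both MC4R_WD groups than in WT_SD cells, and Slc6a9 passed in no comparison.

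The glutamate carriers Slc1a2 and Slc1a3 were lower in both MC4R_WD groups, whereas the neutral exchangers Slc1a4 and Slc1a5 of the same family were higher. Slc1a2, the high-affinity glutamate carrier known from astrocytes and from hepatocytes around central veins, measured -0.99, -1.08, -1.03, -1.10 and -1.17 in CD11c-positive MC4R_WD cells, 0.13, -0.060, 0.013, 0.20 and 0.18 in CD11c-negative MC4R_WD cells, and 1.86, 1.91, 1.88, 2.02 and 1.94 in WT_SD cells. The groups did not overlap, and CD11c-positive MC4R_WD cells were lowest. It fell 3.55-fold in CD11c-negative MC4R_WD cells against WT_SD cells (-1.83 ± 0.052, adjusted p = 2.88e-13). It fell 2.25-fold in CD11c-positive MC4R_WD cells against CD11c-negative MC4R_WD cells (-1.17 ± 0.052, adjusted p = 1.94e-10) and 7.99-fold in CD11c-positive MC4R_WD cells against WT_SD cells (-2.997 ± 0.052, adjusted p = 9.00e-16). The step between CD11c-negative MC4R_WD cells and WT_SD cells was -1.86 on slide 1 and -1.79 on slide 2. Slc1a3, the other widely studied glutamate carrier of glia, measured -1.90, -1.79, -1.80, -1.85 and -1.67 in CD11c-positive MC4R_WD cells, -1.70, -1.66, -1.91, -2.02 and -2.02 in CD11c-negative MC4R_WD cells, and -0.33, -0.37, -0.26, -0.33 and -0.28 in WT_SD cells. The MC4R_WD groups overlapped with each other and lay below all arrays of WT_SD cells. It was 2.92-fold lower in CD11c-negative MC4R_WD cells than in WT_SD cells (-1.55 ± 0.069, adjusted p = 4.25e-11) and 2.81-fold lower in CD11c-positive MC4R_WD cells than in WT_SD cells (-1.49 ± 0.069, adjusted p = 5.22e-11). The difference between CD11c-positive MC4R_WD cells and CD11c-negative MC4R_WD cells was 0.059 ± 0.069 (adjusted p = 0.497).

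Markers of hepatocytes and of liver endothelium moved with the falls of Slc1a2 in all 3 comparisons. They moved with those of Slc6a13, Slc1a3 and Slc7a3 against WT_SD cells only, since none of these passed between CD11c-positive MC4R_WD cells and CD11c-negative MC4R_WD cells. Of 13 tested hepatocyte markers 7 were lower and 4 higher in CD11c-negative MC4R_WD cells than in WT_SD cells, and 10 were lower in CD11c-positive MC4R_WD cells than in CD11c-negative MC4R_WD cells. The mean over the list was 1.37 to 1.41 on arrays of CD11c-positive MC4R_WD cells, 1.62 to 1.79 on those of CD11c-negative MC4R_WD cells and 2.17 to 2.26 on those of WT_SD cells. Over all genes, 28.5% were lower and 48.3% higher in CD11c-negative MC4R_WD cells than in WT_SD cells. In CD11c-positive MC4R_WD cells 23.2% of all genes were lower than in CD11c-negative MC4R_WD cells and 26.3% were lower than in WT_SD cells. Of 14 endothelial markers 11 were lower in CD11c-negative MC4R_WD cells than in WT_SD cells and 11 were lower in CD11c-positive MC4R_WD cells than in CD11c-negative MC4R_WD cells. Their list means were 2.45 to 2.55 in CD11c-positive MC4R_WD cells, 2.90 to 3.04 in CD11c-negative MC4R_WD cells and 3.62 to 3.71 in WT_SD cells. Each tested marker of either list was well above background on at least 1 array of every group. The largest fall among hepatocyte markers between CD11c-negative MC4R_WD cells and WT_SD cells was that of Pck1 (-2.59), and the difference of albumin (Alb) was -1.19. The median over the 13 hepatocyte markers was -0.47, and the 4 that were higher ran against these falls. Liver macrophage and erythroid markers stood in the order of Slc1a2 too, with list means of 6.06 to 6.18 and -2.88 to -2.58 in CD11c-positive MC4R_WD cells, 6.60 to 6.73 and -1.73 to -0.95 in CD11c-negative MC4R_WD cells, and 7.33 to 7.46 and -0.57 to -0.34 in WT_SD cells. Of 13 tested macrophage markers 6 were lower and 6 higher in CD11c-negative MC4R_WD cells than in WT_SD cells, and 12 were lower in CD11c-positive MC4R_WD cells than in CD11c-negative MC4R_WD cells. Of 4 tested erythroid markers 3 were lower in either comparison, and Alas2 was not well above background on any array of CD11c-positive MC4R_WD cells. Mast cell and eosinophil list means ran in that order as well. They were -2.85 to -2.28 in CD11c-positive MC4R_WD cells, -2.10 to -1.86 in CD11c-negative MC4R_WD cells and -1.13 to -1.01 in WT_SD cells. Of 5 tested markers 1 was higher and 2 were lower in CD11c-positive than in CD11c-negative MC4R_WD cells. Of 9 tested B cell and plasma cell markers 8 were lower in CD11c-negative MC4R_WD cells than in WT_SD cells and 9 in CD11c-positive MC4R_WD cells than in WT_SD cells, with 1 higher and 3 lower in CD11c-positive MC4R_WD cells than in CD11c-negative MC4R_WD cells. Their list means were -1.04 to -0.72 in CD11c-positive MC4R_WD cells, -1.04 to -0.68 in CD11c-negative MC4R_WD cells and 0.62 to 0.77 in WT_SD cells, the order seen for Slc6a13, Slc1a3 and Slc7a3. Blk of that list was not well above background on any array of either MC4R_WD group. The part of these cells in the results was not tested, and in bulk samples fewer cells of a type and less RNA per cell cannot be told apart.

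Slc1a5, the glutamine exchanger ASCT2, measured 1.52, 1.496, 1.63, 1.60 and 1.59 in CD11c-positive MC4R_WD cells, 0.96, 0.89, 0.81, 0.99 and 1.05 in CD11c-negative MC4R_WD cells, and 0.38, 0.26, 0.34, 0.51 and 0.51 in WT_SD cells. The 3 groups did not overlap. It was 1.46-fold higher in CD11c-negative MC4R_WD cells than in WT_SD cells (0.54 ± 0.054, adjusted p = 3.70e-07). It was 1.54-fold higher in CD11c-positive MC4R_WD cells than in CD11c-negative MC4R_WD cells (0.63 ± 0.054, adjusted p = 2.69e-07) and 2.25-fold higher in CD11c-positive MC4R_WD cells than in WT_SD cells. Its other kept probe gave 0.55 between CD11c-negative MC4R_WD cells and WT_SD cells. Slc1a4, the related exchanger of alanine, serine and cysteine, had a level of 4.42 ± 0.094 in CD11c-positive MC4R_WD cells, 4.19 ± 0.083 in CD11c-negative MC4R_WD cells and 3.56 ± 0.12 in WT_SD cells. Slc1a4 was higher in CD11c-negative MC4R_WD cells than in WT_SD cells by 0.62 ± 0.061 (adjusted p = 2.72e-07) and higher in CD11c-positive MC4R_WD cells than in CD11c-negative MC4R_WD cells by 0.24 ± 0.061 (adjusted p = 0.00443), also without overlap. Slc1a7, a glutamate carrier known from retina, had a level of -2.70 ± 0.24 in CD11c-positive MC4R_WD cells, -1.93 ± 1.09 in CD11c-negative MC4R_WD cells and -2.07 ± 0.17 in WT_SD cells, where the wide spread in CD11c-negative MC4R_WD cells came from 1 array. It passed in no comparison with that array, and without it the difference between CD11c-negative MC4R_WD cells and WT_SD cells was -0.35 (adjusted p = 0.0262) in place of 0.13. Without the same array, that between CD11c-positive MC4R_WD cells and WT_SD cells was -0.63 and passed, in place of -0.63 (adjusted p = 0.145).

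Sodium-coupled neutral carriers of the Slc38 family split evenly between CD11c-negative MC4R_WD cells and WT_SD cells, with 4 of 8 tested genes higher and 4 lower. Of the 4 that were lower, 3 were higher in CD11c-positive MC4R_WD cells than in CD11c-negative MC4R_WD cells. These comparisons share the arrays of CD11c-negative MC4R_WD cells. The share of all genes with this pattern was not counted, so the pattern has no background beside it. Slc38a6, a less studied member, had a level of 0.68 ± 0.031 in CD11c-positive MC4R_WD cells, 0.22 ± 0.061 in CD11c-negative MC4R_WD cells and 0.71 ± 0.076 in WT_SD cells. It was lower in CD11c-negative MC4R_WD cells than in WT_SD cells (-0.49 ± 0.039, adjusted p = 2.40e-08) and higher in CD11c-positive MC4R_WD cells than in CD11c-negative MC4R_WD cells by 0.46 ± 0.039 (adjusted p = 2.06e-07). The difference between CD11c-positive MC4R_WD cells and WT_SD cells was -0.036 ± 0.039 (adjusted p = 0.408). Slc38a1, a glutamine carrier of the plasma membrane, had a level of 3.99 ± 0.035 in CD11c-positive MC4R_WD cells, 3.59 ± 0.069 in CD11c-negative MC4R_WD cells and 3.80 ± 0.078 in WT_SD cells. The same 2 differences were -0.21 ± 0.041 (adjusted p = 0.000310) and 0.41 ± 0.041 (adjusted p = 1.20e-06). CD11c-positive MC4R_WD cells lay 0.20 ± 0.041 above WT_SD cells (adjusted p = 0.000445), a sign that turned to -0.057 with quantile normalization. Slc38a9, the lysosomal arginine sensor, had a level of 1.08 ± 0.11 in CD11c-positive MC4R_WD cells, 0.87 ± 0.11 in CD11c-negative MC4R_WD cells and 1.28 ± 0.065 in WT_SD cells. It was lower in CD11c-negative MC4R_WD cells than in WT_SD cells (-0.41 ± 0.062, adjusted p = 2.52e-05) and higher in CD11c-positive MC4R_WD cells than in CD11c-negative MC4R_WD cells (0.21 ± 0.062, adjusted p = 0.0103). CD11c-positive MC4R_WD cells lay below WT_SD cells (-0.20 ± 0.062, adjusted p = 0.00847). The probes of Slc38a9 disagreed, since its others gave -0.66 to 0.11 between CD11c-negative MC4R_WD cells and WT_SD cells and -0.40 to 0.26 between CD11c-positive MC4R_WD cells and WT_SD cells, so a probe turned the sign of both. Between CD11c-positive MC4R_WD cells and CD11c-negative MC4R_WD cells they gave 0.15 to 0.27.

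Slc7a8, the second large neutral carrier of the CD98 partners (LAT2), had the same pattern, with a level of 3.87 ± 0.049 in CD11c-positive MC4R_WD cells, 3.39 ± 0.081 in CD11c-negative MC4R_WD cells and 4.02 ± 0.069 in WT_SD cells. It was 1.55-fold lower in CD11c-negative MC4R_WD cells than in WT_SD cells (-0.63 ± 0.043, adjusted p = 4.93e-09) and 1.40-fold higher in CD11c-positive MC4R_WD cells than in CD11c-negative MC4R_WD cells (0.48 ± 0.043, adjusted p = 3.58e-07). CD11c-positive MC4R_WD cells lay below WT_SD cells (-0.15 ± 0.043, adjusted p = 0.00564). Markers of other cells were lowest in CD11c-negative MC4R_WD cells as well. Over all genes, 28.5% were lower in CD11c-negative MC4R_WD cells than in WT_SD cells. In CD11c-positive MC4R_WD cells 29.9% of all genes were higher than in CD11c-negative MC4R_WD cells. Of 9 tested conventional dendritic cell markers 8 were lower in CD11c-negative MC4R_WD cells than in WT_SD cells and 8 were higher in CD11c-positive MC4R_WD cells than in CD11c-negative MC4R_WD cells. Their list means were 2.23 to 2.32 in CD11c-positive MC4R_WD cells, 0.31 to 0.52 in CD11c-negative MC4R_WD cells and 1.72 to 1.83 in WT_SD cells. The defining marker Flt3 averaged 2.57 in CD11c-positive MC4R_WD cells, -1.78 in CD11c-negative MC4R_WD cells and 1.36 in WT_SD cells, and Xcr1 was not well above background on any array of CD11c-negative MC4R_WD cells. Of 9 natural killer cell markers 6 were lower in CD11c-negative MC4R_WD cells than in WT_SD cells and 7 higher in CD11c-positive MC4R_WD cells than in CD11c-negative MC4R_WD cells. Their list means were -0.48 to -0.31 in CD11c-positive MC4R_WD cells, -1.82 to -1.44 in CD11c-negative MC4R_WD cells and -0.56 to -0.50 in WT_SD cells. Of 11 T cell markers 9 were lower in CD11c-negative MC4R_WD cells than in WT_SD cells and 8 were higher in CD11c-positive MC4R_WD cells than in CD11c-negative MC4R_WD cells, with list means of 0.12 to 0.15 in CD11c-positive MC4R_WD cells, -0.20 to -0.11 in CD11c-negative MC4R_WD cells and 0.80 to 0.82 in WT_SD cells. Plasmacytoid dendritic cell list means were 1.71 to 1.86 in CD11c-positive MC4R_WD cells, 1.31 to 1.52 in CD11c-negative MC4R_WD cells and 1.92 to 2.00 in WT_SD cells. Of 6 such markers 5 were lower and 1 higher in CD11c-negative MC4R_WD cells than in WT_SD cells. In CD11c-positive MC4R_WD cells 2 were higher and 2 lower than in CD11c-negative MC4R_WD cells. The part of these cells in the pattern of the 4 genes was not tested.

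**Figure D4:**
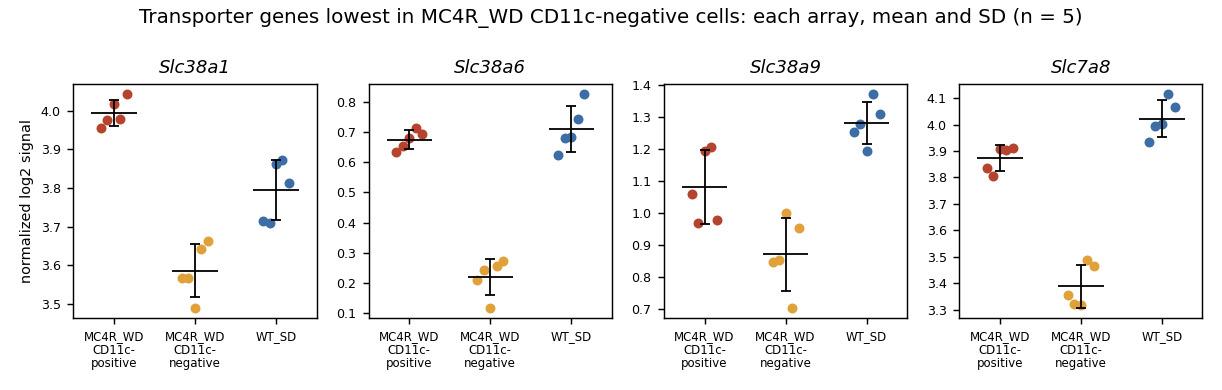
Level (normalized log2 signal, y axis) on each array (points) with the group mean (long line) and SD (bars) for the 4 transporter genes that were lower in CD11c-negative MC4R_WD cells than in WT_SD cells and higher in CD11c-positive than in CD11c-negative MC4R_WD cells, 5 arrays each. The genes were chosen after their values were seen. CD11c-negative MC4R_WD cells lie lowest in each panel, and only in that of Slc38a9 do their arrays overlap with those of CD11c-positive cells.

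The remaining Slc38 members differed less. Slc38a11, a less studied member, had a level of -2.49 ± 0.17 in CD11c-positive MC4R_WD cells, -2.17 ± 0.23 in CD11c-negative MC4R_WD cells and -2.85 ± 0.30 in WT_SD cells. It was 1.60-fold higher in CD11c-negative MC4R_WD cells than in WT_SD cells (0.68 ± 0.14, adjusted p = 0.000514). It was also higher in CD11c-positive MC4R_WD cells than in WT_SD cells (0.36 ± 0.14, adjusted p = 0.0305), a call lost without replicate 1 of CD11c-positive MC4R_WD cells (0.29) or replicate 4 (0.33) or 5 (0.26) of WT_SD cells. The difference between CD11c-positive MC4R_WD cells and CD11c-negative MC4R_WD cells was -0.32 ± 0.14 (adjusted p = 0.0738), and it passed without replicate 1 of CD11c-positive MC4R_WD cells (-0.39), replicate 4 of CD11c-negative MC4R_WD cells (-0.39), or replicate 3 or 5 of WT_SD cells (-0.32 each). Slc38a7, which exports glutamine and asparagine from lysosomes, had a level of 1.32 ± 0.049 in CD11c-positive MC4R_WD cells, 1.27 ± 0.057 in CD11c-negative MC4R_WD cells and 0.98 ± 0.037 in WT_SD cells. It was higher in CD11c-negative MC4R_WD cells than in WT_SD cells (0.29 ± 0.033, adjusted p = 1.49e-06), while the difference between CD11c-positive MC4R_WD cells and CD11c-negative MC4R_WD cells was 0.052 ± 0.033 (adjusted p = 0.204). Slc38a2, the carrier known to be induced by amino acid shortage, had a level of 2.94 ± 0.10 in CD11c-positive MC4R_WD cells, 2.80 ± 0.12 in CD11c-negative MC4R_WD cells and 2.60 ± 0.066 in WT_SD cells. Its difference between CD11c-negative MC4R_WD cells and WT_SD cells, 0.19 ± 0.060 (adjusted p = 0.00886), turned to -0.031 with quantile normalization, and it was higher in CD11c-positive MC4R_WD cells than in WT_SD cells by 0.34 ± 0.060 (adjusted p = 0.000107). In CD11c-positive MC4R_WD cells against CD11c-negative MC4R_WD cells the difference was 0.15 ± 0.060 (adjusted p = 0.0507), and it passed without replicate 1 (0.17) or 2 (0.18) of CD11c-positive MC4R_WD cells, replicate 4 (0.17) or 5 (0.18) of CD11c-negative MC4R_WD cells, or replicate 5 of WT_SD cells (0.15). Slc38a10 had a level of 0.12 ± 0.15 in CD11c-positive MC4R_WD cells, 0.43 ± 0.23 in CD11c-negative MC4R_WD cells and 0.067 ± 0.29 in WT_SD cells. It passed between CD11c-negative MC4R_WD cells and WT_SD cells (0.37 ± 0.14, adjusted p = 0.0233) with overlapping arrays. It no longer passed without replicate 1 of CD11c-negative MC4R_WD cells (0.31), replicate 3 of CD11c-negative MC4R_WD cells (0.31), replicate 4 of WT_SD cells (0.28) or replicate 5 of WT_SD cells (0.30). Its difference between CD11c-positive MC4R_WD cells and CD11c-negative MC4R_WD cells was -0.31 ± 0.14 (adjusted p = 0.0664), and it passed without replicate 4 (-0.37) or 5 (-0.38) of CD11c-negative MC4R_WD cells or replicate 4 of WT_SD cells (-0.31). Slc38a3, a glutamine carrier known from hepatocytes, was dim. Its level was -3.79 ± 0.42 in CD11c-positive MC4R_WD cells, -3.72 ± 0.18 in CD11c-negative MC4R_WD cells and -3.16 ± 0.19 in WT_SD cells, and it was well above background on 3 arrays of CD11c-positive MC4R_WD cells, 2 of CD11c-negative MC4R_WD cells and 4 of WT_SD cells. It was lower in CD11c-negative MC4R_WD cells than in WT_SD cells (-0.56 ± 0.17, adjusted p = 0.00753) and in CD11c-positive MC4R_WD cells than in WT_SD cells (-0.63 ± 0.17, adjusted p = 0.00327). The first of these was -0.035 with normexp and no longer passed. Slc38a3 passed the filter only through WT_SD cells, which favours a lower level in the other groups.

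Facilitated and proton-coupled carriers gave 1 clear fall. Slc43a3, known as a carrier of purine nucleobases rather than of amino acids, had a level of 1.76 ± 0.074 in CD11c-positive MC4R_WD cells, 2.10 ± 0.082 in CD11c-negative MC4R_WD cells and 2.71 ± 0.082 in WT_SD cells. Slc43a3 was lower in CD11c-negative MC4R_WD cells than in WT_SD cells (-0.60 ± 0.050, adjusted p = 4.32e-08), lower in CD11c-positive MC4R_WD cells than in CD11c-negative MC4R_WD cells (-0.34 ± 0.050, adjusted p = 4.95e-05) and 1.92-fold lower in CD11c-positive MC4R_WD cells than in WT_SD cells, without overlap. The means of the endothelial, hepatocyte, liver macrophage, erythroid, and mast cell and eosinophil lists given above ran in the same order. The part of these cells in the fall was not tested. Slc43a2, the large neutral carrier LAT4, had a level of 4.05 ± 0.041 in CD11c-positive MC4R_WD cells, 3.95 ± 0.032 in CD11c-negative MC4R_WD cells and 3.64 ± 0.032 in WT_SD cells. It was higher in CD11c-negative MC4R_WD cells than in WT_SD cells by 0.31 ± 0.027 (adjusted p = 6.36e-08), which was 0.027 with quantile normalization and no longer passed, and higher in CD11c-positive MC4R_WD cells than in CD11c-negative MC4R_WD cells by 0.095 ± 0.027 (adjusted p = 0.00796). Slc36a1, a lysosomal exporter of small neutral amino acids, had a level of 0.80 ± 0.068 in CD11c-positive MC4R_WD cells, 0.89 ± 0.069 in CD11c-negative MC4R_WD cells and 0.65 ± 0.058 in WT_SD cells. Its difference between CD11c-negative MC4R_WD cells and WT_SD cells was 0.24 ± 0.042 (adjusted p = 9.07e-05), and 0.0081 with the percentile over probes detected on all arrays. That between CD11c-positive MC4R_WD cells and CD11c-negative MC4R_WD cells was -0.097 ± 0.042 (adjusted p = 0.0654), and without replicate 1 of CD11c-positive MC4R_WD cells or replicate 2 of CD11c-negative MC4R_WD cells it was -0.12 and passed. Slc36a4 had a level of -0.32 ± 0.16 in CD11c-positive MC4R_WD cells, -0.26 ± 0.68 in CD11c-negative MC4R_WD cells and -0.37 ± 0.16 in WT_SD cells. It passed in no comparison, and its probes disagreed in sign in all 3.

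Members that could not be tested were 27 genes with a probe but no kept one and 2 with no probe, Slc6a5 and Slc6a16. Of the 27, Slc1a6 was well above background on 3 arrays (1 of CD11c-negative MC4R_WD cells and 2 of WT_SD cells), Slc36a3 on 2 of CD11c-positive MC4R_WD cells, Slc38a4 on 2 of WT_SD cells, Slc43a1 on 1 of CD11c-positive MC4R_WD cells and Slc6a11 on 1 of CD11c-negative MC4R_WD cells. The other 22 were not well above background on any array. They were Slc1a1, Slc36a2, Slc38a5, Slc38a8, Slc3a1, Slc6a2, Slc6a3, Slc6a4, Slc6a7, Slc6a14, Slc6a15, Slc6a17, Slc6a18, Slc6a19, Slc6a20b, Slc6a21, Slc7a9, Slc7a10, Slc7a12, Slc7a13, Slc7a14 and Slc7a15. Thus Slc3a2 was the only heavy chain measured, and Slc7a9, the partner of Slc3a1 in kidney, was not detected either.

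Genes around the transporters were described by list. Over all genes, 48.3% were higher and 28.5% lower in CD11c-negative MC4R_WD cells than in WT_SD cells. In CD11c-positive MC4R_WD cells 29.9% of all genes were higher and 23.2% lower than in CD11c-negative MC4R_WD cells. Of 15 tested carriers of other families 9 were higher and 2 lower in CD11c-negative MC4R_WD cells than in WT_SD cells (median 0.36), a split that became 6 and 5 with quantile normalization and 7 and 6 with the percentile over detected probes. Slc25a44, a mitochondrial carrier of branched-chain amino acids, averaged 3.65 in CD11c-positive MC4R_WD cells, 3.87 in CD11c-negative MC4R_WD cells and 2.41 in WT_SD cells and was higher in CD11c-negative MC4R_WD cells than in WT_SD cells by 1.45 ± 0.11 (adjusted p = 1.06e-08). Mfsd12, which brings cysteine into lysosomes, averaged -2.17 in CD11c-positive MC4R_WD cells, -2.84 in CD11c-negative MC4R_WD cells and -4.35 in WT_SD cells and was higher in CD11c-negative MC4R_WD cells than in WT_SD cells by 1.505 ± 0.18 (adjusted p = 2.80e-06), though only 1 array of WT_SD cells was well above background. Slc15a2, a peptide carrier, fell by 1.81-fold in CD11c-negative MC4R_WD cells against WT_SD cells (-0.86 ± 0.076, adjusted p = 9.24e-08), and Slc17a5, the lysosomal sialic acid exporter, by 1.49-fold (-0.57 ± 0.045, adjusted p = 2.25e-08). Against CD11c-negative MC4R_WD cells, 5 of the 15 were higher and 3 lower in CD11c-positive MC4R_WD cells.

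The glutathione list, which includes enzymes that use the cystine brought in by Slc7a11, had more members lower than higher. Of 15 tested genes 4 were higher and 8 lower in CD11c-negative MC4R_WD cells than in WT_SD cells (median -0.15), 2 and 4 in CD11c-positive MC4R_WD cells against CD11c-negative MC4R_WD cells, and 4 and 7 in CD11c-positive MC4R_WD cells against WT_SD cells. Over all genes these shares were 48.3% and 28.5%, 29.9% and 23.2%, and 51.4% and 26.3%. Nfe2l2, which encodes NRF2, averaged 5.45 in CD11c-positive MC4R_WD cells, 5.43 in CD11c-negative MC4R_WD cells and 4.89 in WT_SD cells and was higher in CD11c-negative MC4R_WD cells than in WT_SD cells by 0.54 ± 0.029 (adjusted p = 3.42e-10), as was sulfiredoxin (Srxn1) by 0.41 ± 0.050 (adjusted p = 2.76e-06). Cth, which makes cysteine from cystathionine, was well above background on 4 arrays of WT_SD cells and on none of the MC4R_WD groups. It was at least 1.56-fold lower in CD11c-negative MC4R_WD cells and at least 1.97-fold lower in CD11c-positive MC4R_WD cells than in WT_SD cells (adjusted p = 2.08e-07 and 1.53e-07). Cth passed the filter only through WT_SD cells, which favours that direction. Chac1, which breaks down glutathione, averaged -2.09 in CD11c-positive MC4R_WD cells, -1.99 in CD11c-negative MC4R_WD cells and -0.89 in WT_SD cells and was 2.15-fold lower in CD11c-negative MC4R_WD cells than in WT_SD cells (-1.10 ± 0.049, adjusted p = 4.21e-11).

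Enzymes of glutamine, glutamate and aspartate were mostly higher, with 9 of 10 higher and 1 lower in CD11c-negative MC4R_WD cells than in WT_SD cells (48.3% and 28.5% of all genes). The median was 0.31, and the split was 7 and 2 with quantile normalization and 5 and 1 with the percentile over detected probes. Asparagine synthetase (Asns) stepped up as Slc7a1 and Slc1a5 did, with means of 1.43 in CD11c-positive MC4R_WD cells, 0.54 in CD11c-negative MC4R_WD cells and -0.90 in WT_SD cells. It was higher in CD11c-negative MC4R_WD cells than in WT_SD cells by 1.44 ± 0.036 (adjusted p = 6.55e-14) and higher in CD11c-positive MC4R_WD cells than in CD11c-negative MC4R_WD cells by 0.89 ± 0.036 (adjusted p = 7.01e-11). Got1, the cytosolic aspartate aminotransferase, was higher in CD11c-negative MC4R_WD cells than in WT_SD cells by 0.60 ± 0.041 (adjusted p = 5.25e-09). Gls2, the liver-type glutaminase, was lower in CD11c-negative MC4R_WD cells than in WT_SD cells (-2.50 ± 0.31, adjusted p = 4.26e-06), with 2 arrays well above background in each MC4R_WD group and 5 in WT_SD cells. Gls2 passed the filter only through WT_SD cells, which favours that direction.

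Serine, glycine and proline enzymes did not move together. Of 8 tested genes 5 were higher and 2 lower in CD11c-negative MC4R_WD cells than in WT_SD cells (48.3% and 28.5% of all genes). The split was 3 and 3 with quantile normalization and 3 and 4 with the percentile over detected probes. Psat1, an aminotransferase of serine synthesis, averaged 2.05 in CD11c-positive MC4R_WD cells, 1.36 in CD11c-negative MC4R_WD cells and 0.23 in WT_SD cells and was higher in CD11c-negative MC4R_WD cells than in WT_SD cells by 1.13 ± 0.022 (adjusted p = 3.62e-15) and in CD11c-positive MC4R_WD cells than in CD11c-negative MC4R_WD cells by 0.69 ± 0.022 (adjusted p = 3.85e-12). Shmt2, the mitochondrial serine hydroxymethyltransferase, was higher in CD11c-negative MC4R_WD cells than in WT_SD cells by 0.54 ± 0.091 (adjusted p = 8.38e-05). Phgdh, the enzyme before Psat1, averaged -0.86 in CD11c-positive MC4R_WD cells, -1.07 in CD11c-negative MC4R_WD cells and -0.25 in WT_SD cells and was lower in CD11c-negative MC4R_WD cells than in WT_SD cells (-0.82 ± 0.083, adjusted p = 3.95e-07), and Gldc, which cleaves glycine in liver mitochondria, was lower in the same comparison (-1.60 ± 0.059, adjusted p = 4.64e-12).

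Of 9 arginine enzymes 8 were higher and 1 lower in CD11c-negative MC4R_WD cells than in WT_SD cells (48.3% and 28.5% of all genes). The median was 0.19, and the split was 5 and 1 with quantile normalization and 4 and 3 with the percentile over detected probes. In CD11c-positive MC4R_WD cells 5 were higher and 1 lower than in CD11c-negative MC4R_WD cells (29.9% and 23.2% of all genes). Asl, which releases arginine from argininosuccinate, was higher in CD11c-negative MC4R_WD cells than in WT_SD cells by 0.66 ± 0.028 (adjusted p = 2.15e-11), and Sms, the spermine synthase, by 0.65 ± 0.029 (adjusted p = 4.68e-11). Arg1, which splits arginine into ornithine and urea, averaged -1.08 in CD11c-positive MC4R_WD cells, -1.996 in CD11c-negative MC4R_WD cells and -0.95 in WT_SD cells. It was lower in CD11c-negative MC4R_WD cells than in WT_SD cells (-1.05 ± 0.064, adjusted p = 1.57e-09) and higher in CD11c-positive MC4R_WD cells than in CD11c-negative MC4R_WD cells by 0.91 ± 0.064 (adjusted p = 2.92e-08), while the difference between CD11c-positive MC4R_WD cells and WT_SD cells was -0.13 ± 0.064 (adjusted p = 0.0785).

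Of 7 branched-chain enzymes 4 were higher and 1 lower in CD11c-negative MC4R_WD cells than in WT_SD cells (48.3% and 28.5% of all genes). The median was 0.22, and the split was 3 and 2 with quantile normalization and 2 and 2 with the percentile over detected probes. Bckdha, a subunit of the branched-chain ketoacid dehydrogenase, was higher in CD11c-negative MC4R_WD cells than in WT_SD cells by 0.56 ± 0.032 (adjusted p = 7.57e-10), and the mitochondrial aminotransferase Bcat2 by 0.30 ± 0.036 (adjusted p = 2.92e-06). Ppm1k, the phosphatase that activates that dehydrogenase, was lower in CD11c-negative MC4R_WD cells than in WT_SD cells (-0.47 ± 0.035, adjusted p = 1.25e-08). Of 5 tested enzymes of tryptophan and phenylalanine none was higher and 2 were lower in CD11c-negative MC4R_WD cells than in WT_SD cells. In CD11c-positive MC4R_WD cells 4 were higher and none lower than in CD11c-negative MC4R_WD cells (29.9% and 23.2% of all genes). Kmo, the hydroxylase of kynurenine, averaged 1.36 in CD11c-positive MC4R_WD cells, -1.10 in CD11c-negative MC4R_WD cells and 0.39 in WT_SD cells. It was lower in CD11c-negative MC4R_WD cells than in WT_SD cells (-1.49 ± 0.046, adjusted p = 6.56e-13) and higher in CD11c-positive MC4R_WD cells than in CD11c-negative MC4R_WD cells by 2.46 ± 0.046 (adjusted p = 1.65e-14), and Afmid, which makes kynurenine from its formyl form, was lower in CD11c-negative MC4R_WD cells than in WT_SD cells (-0.58 ± 0.055, adjusted p = 2.11e-07).

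Of 18 genes of the amino acid response 11 were higher and 5 lower in CD11c-negative MC4R_WD cells than in WT_SD cells (median 0.26), 8 and 4 in CD11c-positive MC4R_WD cells against CD11c-negative MC4R_WD cells, and 10 and 4 in CD11c-positive MC4R_WD cells against WT_SD cells. Over all genes these shares were 48.3% and 28.5%, 29.9% and 23.2%, and 51.4% and 26.3%. The first split was 7 and 7 with quantile normalization and 8 and 8 with the percentile over detected probes. Atf3, a stress-induced transcription factor of the list, averaged 6.79 in CD11c-positive MC4R_WD cells, 6.89 in CD11c-negative MC4R_WD cells and 5.10 in WT_SD cells and was higher in CD11c-negative MC4R_WD cells than in WT_SD cells by 1.79 ± 0.036 (adjusted p = 5.01e-15), ahead of Asns in size. The genes that were lower in CD11c-negative MC4R_WD cells than in WT_SD cells included Chac1, given above, and Sesn2, which restrains mTORC1 when leucine is short (-0.53 ± 0.021, adjusted p = 1.50e-11). Genes known as targets of the same response thus lay on both sides.

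Of 31 genes by which mTORC1 senses amino acids 17 were higher and 9 lower in CD11c-negative MC4R_WD cells than in WT_SD cells (median 0.13), 14 and 4 in CD11c-positive MC4R_WD cells against CD11c-negative MC4R_WD cells, and 17 and 5 in CD11c-positive MC4R_WD cells against WT_SD cells. Over all genes these shares were 48.3% and 28.5%, 29.9% and 23.2%, and 51.4% and 26.3%. The first split was 9 and 13 with quantile normalization and 12 and 16 with the percentile over detected probes. Mitf, a transcription factor of lysosomal genes, averaged 4.33 in CD11c-positive MC4R_WD cells, 4.05 in CD11c-negative MC4R_WD cells and 3.30 in WT_SD cells and was higher in CD11c-negative MC4R_WD cells than in WT_SD cells by 0.75 ± 0.036 (adjusted p = 9.14e-11). Lamtor1, the lysosomal anchor of the Ragulator complex, was higher in the same comparison by 0.70 ± 0.037 (adjusted p = 3.38e-10). Sesn3, a relative of Sesn2, was lower in CD11c-negative MC4R_WD cells than in WT_SD cells (-0.53 ± 0.046, adjusted p = 7.41e-08) and higher in CD11c-positive MC4R_WD cells than in CD11c-negative MC4R_WD cells by 0.55 ± 0.046 (adjusted p = 2.01e-07).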

How the data were processed

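Gene expression was measured on 15 Agilent one-colour (Cy3) arrays, 5 for each group, from 0.1 ug of RNA per sample. Per the file headers and the submitters' processing notes, the scanner files come from Agilent Feature Extraction 10.7.3.1 and hold the intensity of each spot, as processed signal that is background-subtracted and not scaled between arrays, beside its flags. The values of the deposited table are log2, and set against the scanner files they equal the log2 processed signal relative to the 75th percentile of the array and to the median of the WT_SD arrays (median absolute difference 0.00146), and the table served only as an alternative. The authors' further steps are not given in the sources used here.

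Of 62976 spots on an array, 3671 control spots and the 113 to 190 outlier spots of each array were left out, and none was saturated. The 75th percentile over probes was subtracted from the log2 processed signal. Probes were named through the RefSeq table (GRCm38.p6), 26582 of 55681 of them, and kept when well above background on at least 4 of 5 arrays of a group. The brightest kept probe stood for its gene, which gave 13390 genes, and 7 tested transporter genes had more than 1 kept probe. Groups were compared over all 15 arrays with lmFit and eBayes of limma 3.58.1 in R 4.3.3 (data.table in version 1.17.8), 2-sided, without covariates, after a test on simulated data. Bounds for genes not well above background on any array of a group use, per array, the lowest signal that was called well above background. The number of arrays limits the precision. Figures were drawn with Python 3.11.15 and matplotlib 3.10.9.

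The members, lists and tests were chosen with earlier results of these data known. Of the 34 tested members 33 are named, since 1 is not reported here, those at 2-fold or more with each array, and of each list the 2 genes with the largest rise and the 2 with the largest fall between CD11c-negative MC4R_WD cells and WT_SD cells among those that passed. Alternatives tried were background correction with normexp (offset 50, from the median signal of a spot, since the files hold no mean), quantile normalization, the percentile over probes detected on all arrays, other filters, the slides fitted separately or as a block, the replicate number as a block, alone or with slide, a fit on only the arrays of both groups, averaged probes per gene, a prior with trend and robust estimation, the deposited log2 values, and fits without 1 array.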

Additional observations from a re-analysis of the deposited data

Results flagged for a closer look

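In 6 of the 102 sets of 5 arrays (34 genes in 3 groups), the highest or lowest array stood apart from the other 4 by more than 0.71 of the whole range, Dixon's critical value for 5. Chance alone gives about 1 set in 20. For Slc1a7, replicate 2 of CD11c-negative MC4R_WD cells was highest at -0.014, with the next at -2.25. For Slc36a4, replicate 3 of the same group was highest at 0.93, with the next at -0.34. For Slc38a3, replicate 1 of the same group was highest at -3.41 (next -3.75), and for Slc6a13, replicate 2 was lowest at -2.49 (next -2.24). For Slc7a11, replicate 5 of CD11c-positive MC4R_WD cells was highest at -3.31 (next -3.91), and for Slc7a4, replicate 2 of WT_SD cells was highest at -1.79 (next -2.90).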

How the results depend on the processing

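With each array left out in turn, CD11c-negative MC4R_WD cells against WT_SD cells had 15 to 17 transporter genes higher and 10 to 12 lower, CD11c-positive MC4R_WD cells against CD11c-negative MC4R_WD cells 13 to 15 and 4 to 6, and CD11c-positive MC4R_WD cells against WT_SD cells 17 to 19 and 8 to 9. At 2-fold or more these were 2 higher and 3 to 4 lower, 2 and 1, and 6 to 7 and 3 in the same order. With normexp, 1 gene was at least 2-fold higher in CD11c-negative MC4R_WD cells than in WT_SD cells, and between CD11c-positive MC4R_WD cells and CD11c-negative MC4R_WD cells 10 genes were lower and 0 differed by 2-fold or more in either direction (by construction its offset shrinks the differences of dim genes). Between CD11c-positive MC4R_WD cells and CD11c-negative MC4R_WD cells 7 genes were lower on slide 2 alone, 1 was at least 2-fold higher on slide 1 alone and 1 on slide 2 alone, and 0 were with the filter on all 15 arrays, which drops Slc7a11 and Slc6a12. Between CD11c-positive MC4R_WD cells and WT_SD cells 5 genes were at least 2-fold lower with the percentile over detected probes. Over all genes that percentile gave 3980 higher and 6255 lower in CD11c-negative MC4R_WD cells than in WT_SD cells (6466 and 3814 in the main processing) and 4293 and 6041 in CD11c-positive MC4R_WD cells than in WT_SD cells (6876 and 3516). Genes at least 2-fold higher and lower over all genes were 424 and 350 with normexp between CD11c-negative MC4R_WD cells and WT_SD cells (694 and 833), 83 and 75 between CD11c-positive MC4R_WD cells and CD11c-negative MC4R_WD cells (222 and 159) and 579 and 504 between CD11c-positive MC4R_WD cells and WT_SD cells (891 and 940), and the filter on all 15 arrays gave 460 lower, 105 higher and 85 lower, and 567 lower in these comparisons. The percentile over detected probes gave 564 higher in the last.

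Single genes whose direction turned were Slc38a2 (-0.031 with quantile normalization and -0.042 with the percentile over detected probes) and Slc3a2 (-0.18 with quantile normalization) between CD11c-negative MC4R_WD cells and WT_SD cells. For Slc1a7 in that comparison the values were -0.35 to 0.33 over the arrays left out, and -0.35, without replicate 2 of CD11c-negative MC4R_WD cells, passed. Slc7a5 turned to 0.14 between CD11c-positive MC4R_WD cells and CD11c-negative MC4R_WD cells with the mean of its probes. Between CD11c-positive MC4R_WD cells and WT_SD cells, Slc36a1 (-0.10), Slc38a1 (-0.049), Slc3a2 (-0.046) and Slc7a5 (-0.047) turned with the percentile over detected probes, and Slc38a1 (-0.057) and Slc3a2 (-0.18) with quantile normalization. The cause was not tested beyond the shifts of the median of all genes given above. A change of sign of a value that passed in neither setting was not counted. Leaving out 1 array, 1502 results kept direction and side of the threshold, 19 passed newly, 8 no longer passed and 1 turned. Under the other alternatives 1319 kept them, 48 passed newly, 36 no longer passed and 10 turned. Part of these counts was fixed by construction. Leaving out an array of the group outside a comparison cannot change the fitted difference, only its spread. The fit on only both groups and the other prior keep the fitted differences too, and the deposited values nearly do.

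Replicate numbers in the titles are shared between groups. No label says what a number marks. Of 15 pairs of arrays with the same number 11, not all, had deviations that correlated above 0.1 (-0.198 to 0.373), and with slide removed they were -0.168 to 0.175, so the numbers were not taken to pair the samples. As a hint from the data, 9 of 15 arrays matched best with their own number. With the replicate block, 16 genes were higher and 10 lower in CD11c-negative MC4R_WD cells than in WT_SD cells, 15 and 6 in CD11c-positive MC4R_WD cells than in CD11c-negative MC4R_WD cells, and 18 and 8 in CD11c-positive MC4R_WD cells than in WT_SD cells, and with slide as a block too 16 and 10, 12 and 5, and 19 and 8. Naming probes by the gene name column of the array design was not run, since the files used here hold no such column.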
